A study of Mus musculus with 10 samples.

Results

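Genes of DNA replication and nucleotide supply were examined in mouse C2C12 myoblasts transfected with a synthetic copy of miR-142-3p, a microRNA, or with a scramble RNA as the control. The set was a fixed list of 49 gene symbols covering origin licensing and firing, the replicative helicase, the sliding clamp, the polymerases, DNA ligation, the supply of DNA precursors and the chromatin assembly that follows the fork. All probes carrying these symbols were taken, which gave 65 probes for the 49 genes among 34608 genes on the array. Of the 49 genes, 41 were bright enough to be measured, out of 13677 genes measured in all. Across these 41 genes the mimic arrays were mostly brighter than the scramble arrays: 35 differences were positive (85.4%, beside 58.5% of all genes measured). Past the test, 4 genes rose (Dut, Tk1, Pola1 and Gmnn), a share of 9.76% beside 5.86% of all genes. None fell past it, beside 3.88% of all genes.

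C2C12 is an established mouse myoblast line derived from skeletal muscle, kept here in growth medium with serum. In the mimic group, cells were transfected with 150 nM of a miR-142-3p mimic. In the scramble group, cells were transfected with the same amount of a scrambled sequence. Both groups used a cationic lipid reagent, both were the same line seeded at the same number, and both were collected after 72 h, with an estimated transfection efficiency of about 60%, so each RNA sample also held RNA of cells that had taken up no oligonucleotide. Total RNA was labelled with the dye Cy3 and hybridised to 1-colour 60-base expression arrays.

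The series lists 6 mimic and 4 scramble samples and describes them as separate transfections, but by the scanner headers the 10 scans come from 1 slide, on which 5 array positions were read on 2 different days. Scans from the same position shared 24 to 82 spots marked as uneven, against at most 2 for any other pair of scans. Their signals correlated at 0.990 to 0.993, a range that overlaps the 0.912 to 0.992 of other pairs, so the shared position and marked spots are the basis here. The 2 scans of a position were therefore averaged, which left 3 mimic arrays and 2 scramble arrays, and n below counts arrays. Every scramble title, but no mimic title, bears the word re-analysis. Per scan, 25.4% to 34.6% of spots were well above background, and none of the replication genes was saturated. Nothing in the scans separates culture-to-culture from technical spread, so the p-values measure only the spread between these arrays, and their small number limits the precision.

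As background, replication origins are prepared when the origin recognition complex, Cdc6 and Cdt1 load the ring-shaped MCM helicase onto DNA. Kinases and the Cdc45 and GINS factors then turn the helicase on, after which primase and the polymerases copy both strands, held on DNA by the PCNA clamp that the RFC complex loads. Many of these genes are transcribed mainly as cells enter S phase, under transcription factors of the E2F family, and they are shut down when myoblasts leave the cell cycle to form muscle fibres.

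The mature microRNA that the mimic is named for is shown to give its seed, the stretch that pairs with targets. It is from RefSeq (GRCm38.p6, chr11:87756903-87756925, plus strand), with the seed, bases 2 to 8, in capitals. The sequence of the commercial mimic itself is not stated in the labels.
mmu-miR-142a-3p: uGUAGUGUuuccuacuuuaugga

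The promoters of 4 members with E2F-type motifs are shown. They had the largest differences among measured members with a match wholly inside the stretch shown. Each is the 160 bases before the start site in RefSeq (GRCm38.p6), written on the strand of the gene, with motif matches in capitals. The positions are chrX:93632156-93632315 on the minus strand for Pola1, chr1:128359706-128359865 on the minus strand for Mcm6, chr5:151651209-151651368 on the minus strand for Rfc3 and chr8:75109349-75109508 on the plus strand for Mcm5.
Pola1: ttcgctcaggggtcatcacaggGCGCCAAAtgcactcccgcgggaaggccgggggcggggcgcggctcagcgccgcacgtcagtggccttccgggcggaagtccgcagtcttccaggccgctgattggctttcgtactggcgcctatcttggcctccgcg
Mcm6: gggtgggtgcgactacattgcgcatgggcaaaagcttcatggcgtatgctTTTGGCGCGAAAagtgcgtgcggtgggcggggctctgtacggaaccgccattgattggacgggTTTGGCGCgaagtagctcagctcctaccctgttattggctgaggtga
Rfc3: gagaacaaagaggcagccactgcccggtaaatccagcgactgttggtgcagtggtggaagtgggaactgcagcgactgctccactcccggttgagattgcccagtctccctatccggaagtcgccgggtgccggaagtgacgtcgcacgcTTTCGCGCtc
Mcm5: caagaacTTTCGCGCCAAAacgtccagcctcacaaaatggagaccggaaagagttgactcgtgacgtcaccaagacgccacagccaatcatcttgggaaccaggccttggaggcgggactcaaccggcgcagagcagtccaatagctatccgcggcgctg

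The motifs searched were TTTCCCGC, TTTCGCGC, TTTGCCGC and TTTGGCGC, 4 spellings of the 8-base E2F-type site, on both strands; some matches overlap each other. The Pola1 match begins at position -138 from the start site. The Mcm6 promoter holds an overlapping pair from -110 and -106 and another match at -47. Rfc3 has a match at -10, and Mcm5 has an overlapping pair from -153 and -149. In these same genes the mimic minus scramble differences on the log2 scale were 1.24 for Pola1, 1.05 for Mcm6, 0.37 for Rfc3 and 0.09 for Mcm5. The 4 genes were picked as those with the largest differences among measured members with a match wholly inside the stretch shown. Gins3, with a match at -41 and a difference of -0.06, was left out by this rule. Rfc3 was well above background on 5 mimic and 2 scramble scans.

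RefSeq promoters, each running from 250 bases before the start to 50 after it, were matched for 40 of the 49 genes, with 49 promoters in all. A motif was found in 15 of these 49 promoters (30.6%), against 744 of 32851 promoters of the table (2.26%). The members' promoters were also richer in G and C, with a median of 61.3% against 52.7%, and the part of base composition in the motif share was not tested. The 15 genes with a match were Cdc6, Cdt1, Dnmt1, Gins3, Lig1, Mcm3, Mcm5, Mcm6, Mcm7, Orc1, Pola1, Pold1, Pole2, Rfc3 and Uhrf1. The 13 of them that were measured had a median difference of 0.46, with a range from -0.15 to 1.24. The 20 measured members whose promoters had no match, Dut and Tk1 among them, had a median difference of 0.36, with a range from -0.22 to 1.51, so the ranges overlapped almost entirely. A match here is a run of letters and says nothing on binding.

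Signals are given below as log2 of the scanner's processed signal minus the 75th percentile of its own scan, so a value of 0 is a probe at that percentile; values of different probes are not set against each other. A difference is the mimic mean minus the scramble mean on this log2 scale. A gene was called higher or lower when limma's moderated test gave a Benjamini-Hochberg adjusted p under 0.05 over all 13677 genes. On this rule 4 of the 41 measured members were higher (9.76%), beside 5.86% of all genes tested, and 0 were lower, beside 3.88% of all genes; in either direction the share was 9.74% of all genes. At an unadjusted p under 0.05 by limma, 19 members had a positive difference and 0 a negative one, beside 15.5% and 9.76% of all genes. Positive differences were found in 35 of 41 members (85.4%), beside 58.5% of all genes. All mimic arrays lay above both scramble arrays in 26 members (63.4%), beside 25.7% of all genes, and all mimic arrays lay below both in 0 members, beside 16.7% of all genes. The median difference was 0.46 for the members and 0.09 for all genes. The same shares of all genes stand beside the counts in the role groups below, which hold only 3 to 7 measured genes each. Since these are bulk cultures, a larger share of cycling cells and more of these RNAs per cell cannot be told apart.

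The results for the members and for all genes depended on single arrays. Without scramble array 1 the median difference of the members was 0.63, beside 0.15 for all genes. Without scramble array 2 it was 0.38, beside 0.03 for all genes. Leaving out mimic array 1, 2 or 3 gave 3, 3 and 2 members called higher, against 4 with all arrays. Over all genes these 3 fits called 366, 345 and 373 higher, against 802 with all arrays. No member was called lower in any of these fits.

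**Figure D1:**
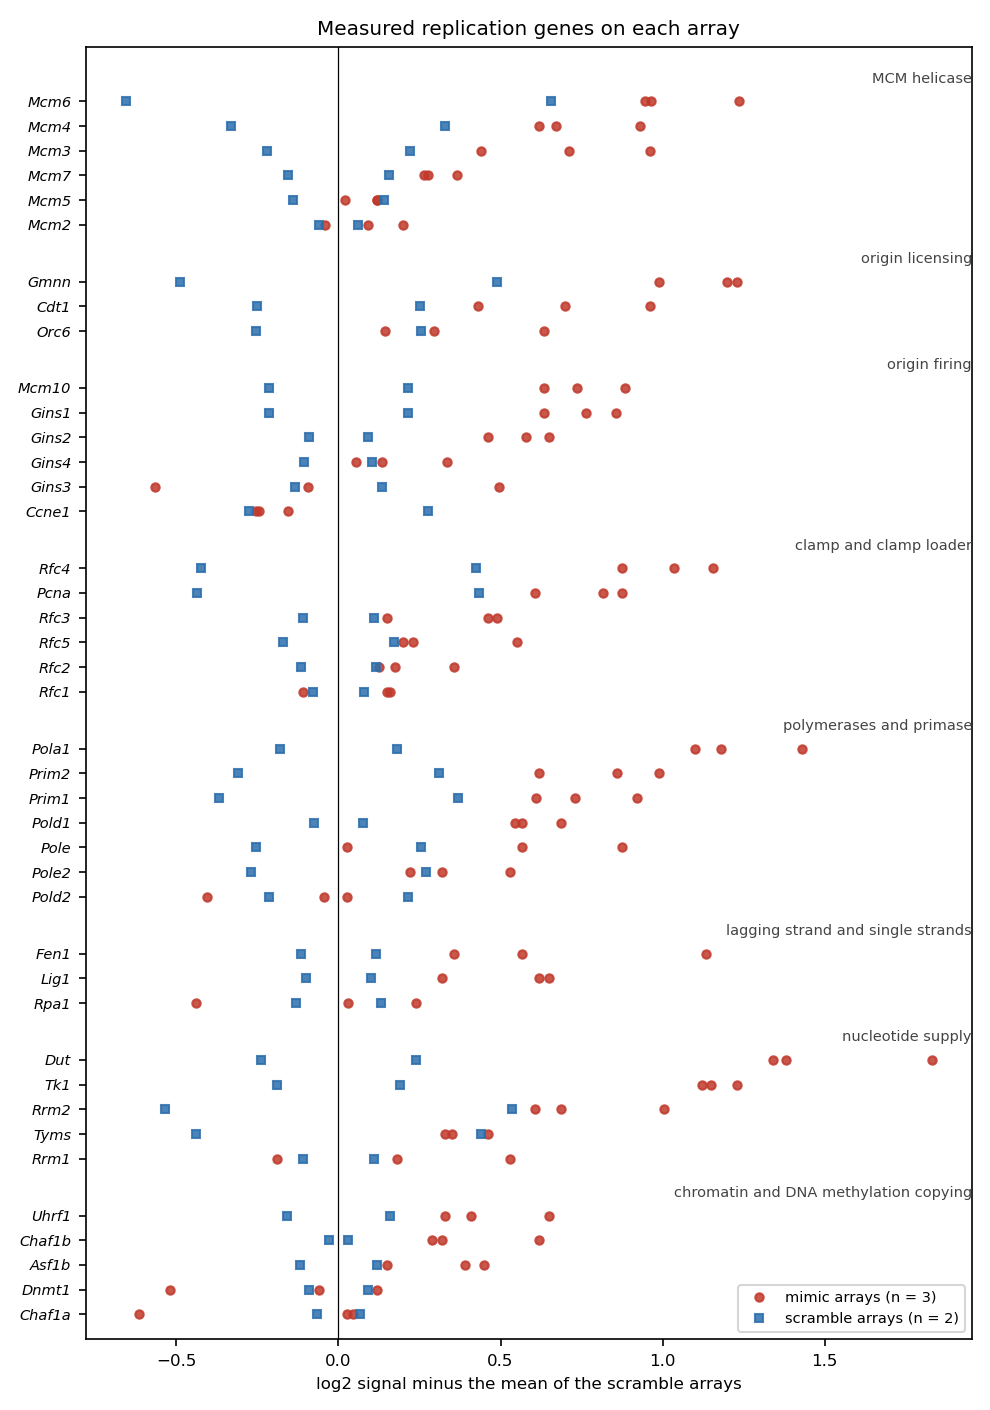
Signal of each measured replication gene on every array, as the difference from that gene's scramble mean on the log2 scale (x axis), with 1 row per gene, genes grouped by role, circles for the 3 mimic arrays and squares for the 2 scramble arrays. The mimic arrays are above the scramble mean for most genes, and scramble array 2 is lower than scramble array 1 in 30 of 41 genes.

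The 2 scramble arrays differed from each other in the same genes. The median of the members, set against each gene's scramble mean, was 0.43, 0.62 and 0.49 on mimic arrays 1 to 3, against 0.17 and -0.17 on scramble arrays 1 and 2. Over all genes the same medians were -0.01, 0.16 and 0.13 on the mimic arrays, against 0.07 and -0.07 on the scramble arrays. Scramble array 2 was lower than scramble array 1 in 30 of 41 members (73.2%), beside 8103 of 13662 genes (59.3%). Every mimic array was above scramble array 1 in 29 members (70.7%), beside 34.9% of all genes, and above scramble array 2 in 31 (75.6%), beside 48.2% of all genes.

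Muscle differentiation markers moved with the groups as well. Of 13 markers of differentiating muscle, 12 were measured and 11 were lower in mimic cells, among them Myog, a transcription factor that starts terminal differentiation, and Myh3, the embryonic myosin heavy chain. Their summed signal, relative to the 75th percentile on a linear scale, was 40 to 48.6 on mimic arrays, against 630 to 645 on scramble arrays. Of 8 myoblast markers, 5 were measured; Cdh15, Des and Myod1 were lower, Cd34 was higher, and Msc and Pax7 were above background on no scan. The summed myoblast signal was 79.6 to 115 on mimic arrays, against 134 to 177 on scramble arrays. The part of the differentiation state in the replication genes' differences was not tested.

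Markers of other cell types were also read. Of 9 leukocyte markers 4 were measured. Cd14 and Cd68 were higher, and Csf1r and Itgam did not pass the test. Ptprc, Spi1, Tyrobp, Lyz2 and Laptm5 were above background on no scan. The summed leukocyte signal was 50.5 to 56.1 on mimic arrays, against 19 to 19.1 on scramble arrays. Of 6 fibroblast markers 5 were measured and Lum was higher, with a summed signal of 352 to 383 on mimic arrays, against 215 to 303 on scramble arrays; Thy1 was above background on no scan. All 4 adipocyte markers were above background on no scan. The part of these markers in the replication genes' differences was not tested.

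Nucleotide supply held the largest difference, that of Dut, and the highest median of the 8 role groups. These 5 enzymes make or protect the DNA precursors: Dut hydrolyses dUTP so that uracil stays out of DNA, Tk1 is the cytosolic thymidine kinase, Tyms makes thymidylate, and Rrm1 and Rrm2 are the large and small subunits of ribonucleotide reductase. All 5 differences were positive, 2 passed the test, and the median was 0.77.

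Dut had log2 signals of 4.15, 4.64 and 4.19 on the mimic arrays, against 3.05 and 2.57 on the scramble arrays. The groups did not overlap, and the gap between them was wider than the spread within either. Dut averaged 4.32 ± 0.27 in mimic cells (SD, n = 3) and 2.81 ± 0.34 in scramble cells (SD, n = 2). This was a 2.86-fold rise, with a log2 difference of 1.51 (SE 0.25, 95% limits 0.95 and 2.08, limma adjusted p = 0.00729). Its probe lies at chr2:125083359-125083418 in mm9, the build named in the file headers. With dim probes kept in the fit, limma's adjusted p for Dut was 0.0916.

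Tk1 had log2 signals of 3.87, 3.98 and 3.90 on the mimic arrays, against 2.94 and 2.56 on the scramble arrays. The mimic arrays were nearly level with each other and all above both scramble arrays. The mean was 3.92 ± 0.06 in mimic cells and 2.75 ± 0.27 in scramble cells (SD, n = 3 and 2). The rise was 2.25-fold, with a log2 difference of 1.17 (SE 0.21, 95% limits 0.70 and 1.65, limma adjusted p = 0.0103), read by a probe at chr11:117676845-117676904 (mm9). A dimmer Tk1 probe gave 0.64 (SE 0.20), which did not pass with limma's adjusted p = 0.0836 when every probe was tested, so the size of the Tk1 rise differed between its probes. Limma's adjusted p for Tk1 was 0.0577 after scaling to the array median, 0.175 with dim probes kept and 0.0542 in slide row 1 alone.

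Rrm2, the regulated subunit of ribonucleotide reductase, had log2 signals of 5.63, 5.95 and 5.55 on the mimic arrays, against 5.48 and 4.41 on the scramble arrays. The lowest mimic array was close to scramble array 1, and the 0.77 difference (SE 0.32) did not pass with limma's adjusted p = 0.181. Rrm1 had log2 signals of 1.89, 2.26 and 2.61 on the mimic arrays, against 2.19 and 1.97 on the scramble arrays. These overlapped, and its difference of 0.18 (SE 0.25) was the least in the group. Tyms differed by 0.38 (SE 0.27) and was well above background on 5 mimic and 3 scramble scans.

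**Figure D2:**
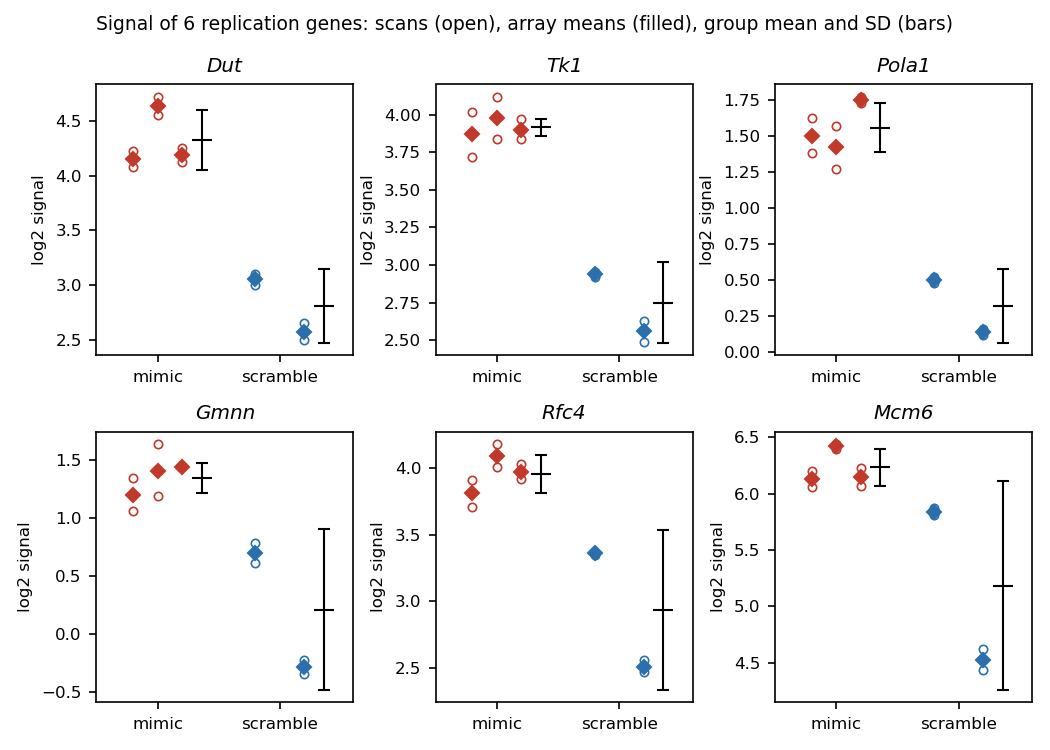
Log2 signal of 6 replication genes, mimic left of scramble, with open circles for scans, filled diamonds for array means, and bars for the group mean and SD (n = 3 mimic and 2 scramble arrays). Dut, Tk1, Pola1 and Gmnn are the members called higher; the scramble arrays are far apart for Gmnn (0.70 and -0.28).

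Among polymerases and primase, Pola1 rose. This group holds the DNA polymerase alpha subunits that start each new strand with primase (Pola1, Pola2, Prim1, Prim2) and subunits of polymerases delta and epsilon, which extend the strands (Pold1, Pold2, Pole, Pole2). Pola2 was not measured; of the other 7 genes, 6 had positive differences, 1 passed the test, and the median was 0.60.

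Pola1, the catalytic subunit of polymerase alpha, had log2 signals of 1.50, 1.42 and 1.75 on the mimic arrays, against 0.50 and 0.14 on the scramble arrays. All mimic arrays were above both scramble arrays by more than the spread within either group. The mean was 1.56 ± 0.17 in mimic cells and 0.32 ± 0.25 in scramble cells (SD, n = 3 and 2). The rise was 2.36-fold, with a log2 difference of 1.24 (SE 0.22, 95% limits 0.74 and 1.74, limma adjusted p = 0.0102). The probe lies at chrX:90550189-90550248 (mm9). Limma's adjusted p for Pola1 was 0.0517 without mimic array 3, 0.134 with normexp background correction and 0.156 with dim probes kept. On the log2 of the authors' deposited values, limma's adjusted p was 0.0504. In slide row 1 alone, which holds 1 scramble array, the Pola1 difference was 1.13.

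Its primase partners differed by 0.75 for Prim1 (SE 0.26) and 0.82 for Prim2 (SE 0.25), short of the threshold with limma's adjusted p of 0.116 and 0.0773. Pold1, the catalytic subunit of polymerase delta, differed by 0.60 (SE 0.19). Pole, the catalytic subunit of polymerase epsilon, differed by 0.49 (SE 0.29) and its partner Pole2 by 0.36 (SE 0.23). Pold2, an accessory subunit of polymerase delta, had a negative difference. Its log2 signals were 0.13, 0.49 and 0.56 on the mimic arrays, against 0.32 and 0.75 on the scramble arrays, which overlapped (difference -0.14, SE 0.23).

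Origin licensing was measured by 3 of its 5 genes, since Orc1 and Cdc6 were too dim. The measured genes were Orc6, a subunit of the origin recognition complex, Cdt1, which brings the MCM ring to origins, and Gmnn, which encodes geminin, the inhibitor that binds Cdt1 and blocks a second loading. All 3 had positive differences, with a median of 0.70. The inhibitor was the member that passed the test.

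Gmnn had log2 signals of 1.20, 1.41 and 1.44 on the mimic arrays, against 0.70 and -0.28 on the scramble arrays. The mimic arrays were close together and above both scramble arrays, which lay far apart. The mean was 1.35 ± 0.13 in mimic cells and 0.21 ± 0.69 in scramble cells (SD, n = 3 and 2). The rise was 2.21-fold, with a log2 difference of 1.15 (SE 0.29, 95% limits 0.47 and 1.82, limma adjusted p = 0.0467), from a probe at chr13:24843715-24843774 (mm9). Without scramble array 2 the difference was 0.66 with a limma adjusted p of 0.136, and the call was also lost on leaving out any 1 mimic array (limma adjusted p from 0.113 to 0.139). It was lost too with slide row as a block (0.0922), on the second scan day (0.118) and in slide row 1 alone (0.151), and under 6 other settings of scaling, filter or source values. Cdt1 differed by 0.70 (SE 0.25, limma adjusted p = 0.126). Orc6 had log2 signals of 2.93, 3.27 and 2.78 on the mimic arrays, against 2.89 and 2.38 on the scramble arrays, which overlapped (difference 0.35, SE 0.25).

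For the genes called higher, the differences within scan days and slide rows kept their sign. Both splits reuse the arrays on which these genes were called, so this was largely set in advance and is no separate support. On the second scan day and with slide row as a block, Gmnn lost its call while Dut, Tk1 and Pola1 kept theirs. In slide row 1 alone Tk1 and Pola1 lost theirs as well. The first scan day gave 1.61 for Dut, 1.31 for Tk1, 1.33 for Pola1 and 1.29 for Gmnn, and the second day gave 1.42, 1.03, 1.14 and 1.0. Slide row 1, with 2 mimic arrays and 1 scramble array, gave 1.12 for Dut, 0.95 for Tk1, 1.13 for Pola1 and 0.63 for Gmnn. Slide row 2, with 1 array of each group and so no test, gave 2.07, 1.42, 1.28 and 1.69. The gap was wider in row 2, which holds scramble array 2, for each of these 4 genes.

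The MCM helicase was measured in full. Mcm2 to Mcm7 form the 6-subunit ring that unwinds DNA at the fork. All 6 differences were positive and none passed the test, with a median of 0.50 and a wide range among subunits of the same ring, from 0.08 to 1.05. The mimic arrays were above both scramble arrays in 4 of the 6 genes (66.7%, beside 25.7% of all genes).

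Mcm6 had log2 signals of 6.13, 6.42 and 6.15 on the mimic arrays, against 5.84 and 4.53 on the scramble arrays. All mimic arrays were higher, but scramble array 1 was much nearer to them than scramble array 2 was. Its difference of 1.05 (SE 0.36, 95% limits 0.23 and 1.86) did not pass with limma's adjusted p = 0.111. It was 1.70 and called without scramble array 1 (limma adjusted p = 0.00284), and 0.39 and not called without scramble array 2. Mcm2 had log2 signals of 2.27, 2.40 and 2.51 on the mimic arrays, against 2.25 and 2.37 on the scramble arrays, which overlapped, with a difference of 0.08 (SE 0.20, 95% limits -0.37 and 0.54). Mcm4 and Mcm3 differed by 0.74 (SE 0.25) and 0.70 (SE 0.24), Mcm7 by 0.30 (SE 0.20) and Mcm5 by 0.09 (SE 0.20).

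Origin firing was measured by 6 of its 10 genes. Cdc45, a partner of the active helicase, the kinase Cdc7 with its activator Dbf4, and cyclin E2 (Ccne2) were too dim. Of the 6 measured, 4 had positive differences, none passed the test, and the median was 0.37. Mcm10, which helps to activate the loaded helicase, had log2 signals of 0.77, 1.02 and 0.87 on the mimic arrays, against 0.35 and -0.08 on the scramble arrays. The groups did not overlap, and the 0.76 difference (SE 0.22, 95% limits 0.26 and 1.26) fell short with limma's adjusted p = 0.0675.

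The 4 GINS subunits, which join Cdc45 and MCM in the moving helicase, were uneven. Gins1 differed by 0.75 (SE 0.22, limma adjusted p = 0.0663) and Gins2 by 0.56 (SE 0.20), while Gins4 differed by 0.17 (SE 0.20) and Gins3 by -0.06 (SE 0.31). Gins2 was dim, above background on 5 mimic scans and 1 scramble scan. It thus entered the test mainly through the mimic arrays, and it still counts in the shares of members given above. Cyclin E1 (Ccne1), which activates Cdk2 at the start of S phase, had log2 signals of 2.94, 3.04 and 2.95 on the mimic arrays, against 3.47 and 2.92 on the scramble arrays. Scramble array 2 was level with the mimic arrays and scramble array 1 was above them, and the difference of -0.22 (SE 0.23) was the most negative of all 41 members.

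**Figure D3:**
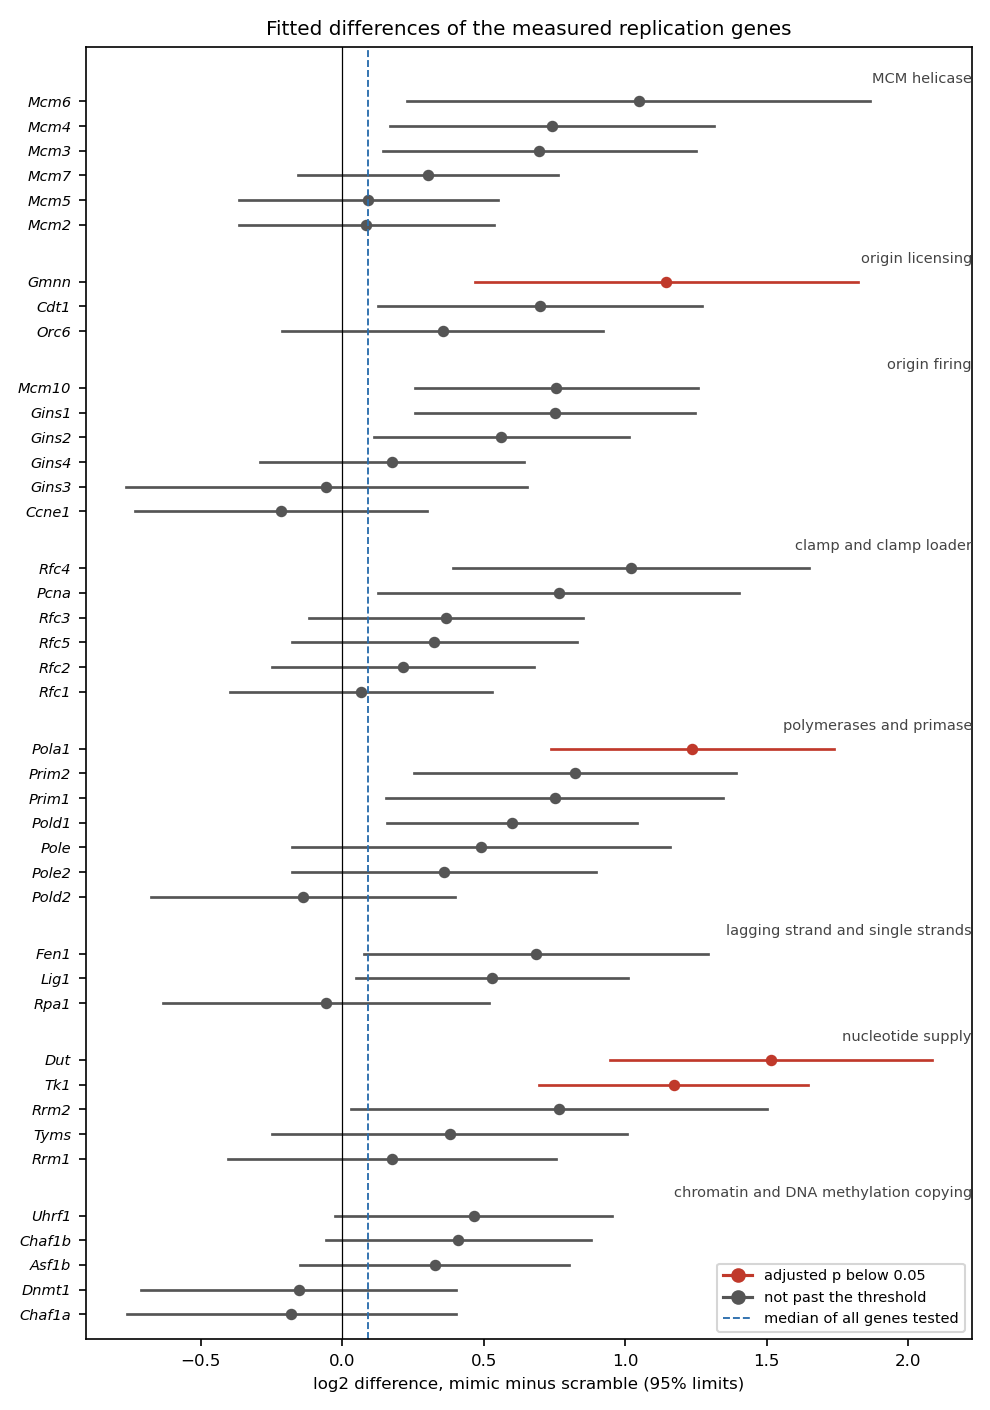
Mimic minus scramble log2 difference of the 41 measured replication genes with 95% limits from limma, grouped by role. The differences run from -0.22 for Ccne1 to 1.51 for Dut, and the 4 genes past the adjusted threshold are marked.

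The sliding clamp and its loader were measured in full. Pcna is the ring that keeps polymerases on DNA, and Rfc1 to Rfc5 are the subunits that open and load it. All 6 differences were positive, none passed the test, and the median was 0.35. The mimic arrays were above both scramble arrays in 5 of 6 genes (83.3%, beside 25.7% of all genes). Rfc4 had log2 signals of 3.81, 4.09 and 3.97 on the mimic arrays, against 3.36 and 2.51 on the scramble arrays. The mimic arrays were higher throughout, and the 1.02 difference (SE 0.27, 95% limits 0.39 and 1.65) fell just short with limma's adjusted p = 0.0538; a dimmer Rfc4 probe gave 0.25.

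Pcna had log2 signals of 5.44, 5.65 and 5.71 on the mimic arrays, against 5.27 and 4.40 on the scramble arrays. As with Mcm6, scramble array 1 was close below the mimic arrays, and the 0.76 difference (SE 0.28) did not pass with limma's adjusted p = 0.133. Rfc3, above background on 5 mimic and 2 scramble scans, differed by 0.37 (SE 0.21), Rfc5 by 0.33 (SE 0.22) and Rfc2 by 0.22 (SE 0.20). Rfc1, the large subunit, had log2 signals of 2.92, 2.91 and 2.65 on the mimic arrays, against 2.84 and 2.68 on the scramble arrays, with a difference of 0.07 (SE 0.20, 95% limits -0.40 and 0.53).

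Lagging strand and single-strand factors were measured by 3 of 4 genes, without Rpa2. Fen1, the nuclease that trims the flaps of Okazaki fragments, had log2 signals of 2.56, 3.34 and 2.77 on the mimic arrays, against 2.32 and 2.09 on the scramble arrays. The groups did not overlap, but the mimic arrays spread widely, and the 0.68 difference (SE 0.27) did not pass with limma's adjusted p = 0.155. Lig1, the ligase that joins the fragments, differed by 0.53 (SE 0.21). Rpa1, the large subunit of the protein that coats single strands, had log2 signals of 4.06, 3.59 and 4.27 on the mimic arrays. The scramble arrays had 4.16 and 3.90, which overlapped the mimic arrays (difference -0.06, SE 0.25). A dimmer Rpa1 probe gave -0.33 (SE 0.20), with all mimic arrays below both scramble arrays. It did not pass, with limma's adjusted p = 0.338 when every probe was tested.

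Among chromatin factors of the fork the largest difference was 0.46, the lowest such value of the 8 role groups. Uhrf1 and Dnmt1 copy DNA methylation onto the new strand, and Chaf1a, Chaf1b and Asf1b deliver histones behind the fork. Of these 5 genes, 3 had positive differences, none passed the test, and the median was 0.33. Uhrf1 had log2 signals of 2.57, 2.89 and 2.65 on the mimic arrays, against 2.08 and 2.40 on the scramble arrays. It was higher on every mimic array, with a difference of 0.46 (SE 0.21, 95% limits -0.03 and 0.95).

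Chaf1a, the large subunit of chromatin assembly factor 1, had log2 signals of -0.67, -0.03 and -0.01 on the mimic arrays, against -0.12 and 0.01 on the scramble arrays. Mimic array 1 was low and the others lay at the scramble level, with a difference of -0.18 (SE 0.25). Chaf1b differed by 0.41 (SE 0.20), Asf1b by 0.33 (SE 0.21) and Dnmt1 by -0.15 (SE 0.24). The 2 subunits of chromatin assembly factor 1 thus had differences of opposite sign, neither of which passed the test.

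**Figure D4:**
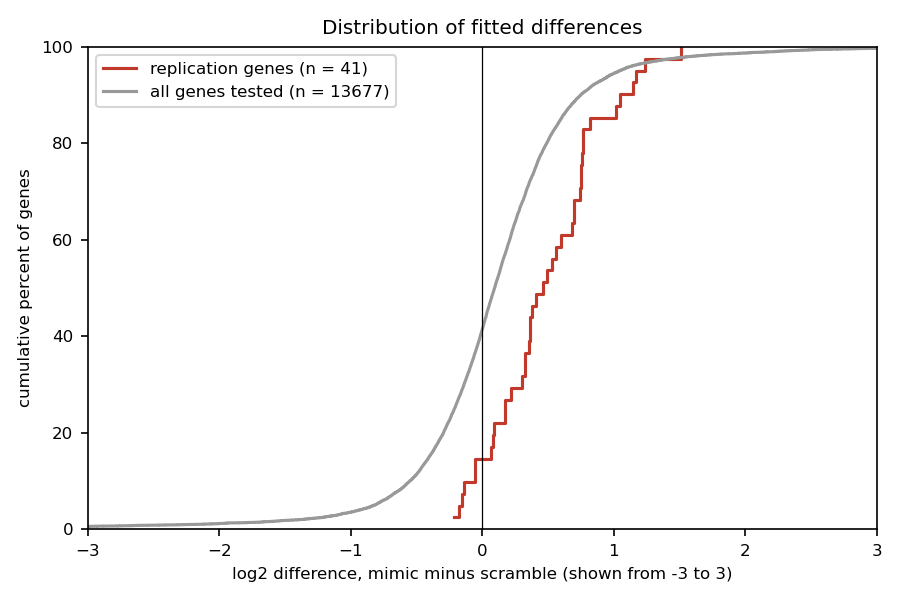
Distribution of mimic minus scramble log2 differences over the 41 measured replication genes, set against all 13677 genes tested. The replication genes lie to the right, with a median of 0.46 against 0.09, and their range stays inside that of all genes.

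The 8 members not measured were Orc1, Cdc6, Cdc45, Cdc7, Dbf4, Ccne2, Pola2 and Rpa2, with 10 probes. Cdc45 and Dbf4 were well above background on 1 mimic scan each and Pola2 on 1 scramble scan, and the other 5 on none. No difference is given for them, because in both groups only a background bound exists.

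Other genes of the same processes were read from 3 further lists with no member in common. Of 30 replisome genes, 24 were measured, 3 were higher (12.5%, beside 5.86% of all genes) and none was lower (beside 3.88%). Positive differences numbered 21 (87.5%, beside 58.5% of all genes), and the median was 0.45. Of the 3 called, Dscc1 and Ticrr were above background on no scramble scan and so entered the test through the mimic arrays alone. That leaves Pold4 as the 1 call with signal in both groups. Dscc1 and Ticrr still count in these shares and in the median. Wdhd1, well above background on 5 mimic scans and 1 scramble scan, counts in the positive share and the median too. Of 18 S phase genes, 16 were measured, 1 was higher (6.25%, beside 5.86% of all genes) and none was lower (beside 3.88%). Differences were positive in 11 of them (68.8%, beside 58.5% of all genes), and the median was 0.37. The called share was thus close to that of all genes. Slbp, well above background on 5 mimic scans and 1 scramble scan, counts in the positive share and the median. Of 32 other nucleotide synthesis genes, 24 were measured, none was higher (beside 5.86% of all genes) and 1 was lower (beside 3.88%). This 1 call is close to what the share of all genes would give. Differences were positive in 11 (45.8%, beside 58.5% of all genes) and negative in 13, and the median was 0.00.

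Pold4, a small accessory subunit of polymerase delta, had log2 signals of 2.84, 2.96 and 2.92 on the mimic arrays, against 1.94 and 2.17 on the scramble arrays. It rose 1.80-fold (log2 difference 0.85, SE 0.20, limma adjusted p = 0.0325), with no overlap. The call held in 11 of 21 alternative fits and was lost in 10. The lost fits included those without mimic array 1, 2 or 3 (limma adjusted p of 0.111, 0.114 and 0.133). The Pold4 call was also lost with slide row as a block (limma adjusted p = 0.0632) and on the second scan day (0.0848). The same held on the log2 of the authors' deposited values (0.0969) and with dim probes kept (0.386). Dscc1, part of an alternative clamp loader, and Ticrr, which helps to fire origins, were well above background on 5 mimic scans each and on no scramble scan. Set against the lowest signal that counted as well above background on the scramble arrays, Dscc1 was 1.55-fold higher and Ticrr 1.43-fold higher. Since the filter admitted them through the mimic arrays, no test is given for them. These values set the mimic mean against a floor on each scramble array. The floor was the lowest signal that counted as well above background, or the probe's own signal where that was higher. It is no fixed detection limit, and a higher floor would give smaller values.

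Ccna2, the S phase cyclin A2, had log2 signals of 3.37, 3.57 and 3.43 on the mimic arrays, against 2.64 and 2.65 on the scramble arrays. It rose 1.76-fold (log2 difference 0.81, SE 0.19, limma adjusted p = 0.0357), and the scramble arrays were level with each other. The call held in 11 of 21 alternative fits and was lost in 10. The lost fits included those without mimic array 1, 2 or 3 (limma adjusted p of 0.115, 0.127 and 0.135). The Ccna2 call was also lost with slide row as a block (limma adjusted p = 0.0728) and on the second scan day (0.0939). The same held on the log2 of the authors' deposited values (0.0893). Without scramble array 2, which leaves 1 scramble array, the Ccna2 difference was 0.82. Slc29a1, a nucleoside transporter of the cell membrane, had log2 signals of 4.43, 4.54 and 4.67 on the mimic arrays, against 5.70 and 5.87 on the scramble arrays. It was 2.36-fold lower (log2 difference -1.24, SE 0.20, limma adjusted p = 0.00656). The call held in 19 of 21 alternative fits and was lost under array-median scaling (limma adjusted p = 0.0959) and with dim probes kept (0.134).

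**Figure D5:**
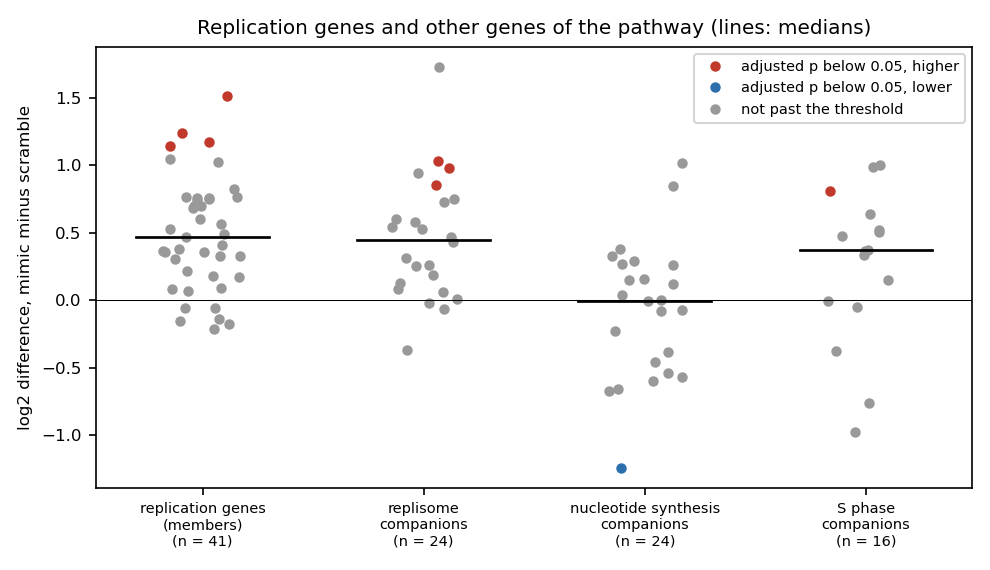
Mimic minus scramble log2 differences of measured genes in the replication members and in the 3 further lists, with called genes marked; of the called replisome genes, Dscc1 and Ticrr were above background on no scramble scan. Replisome genes centre on 0.45 and S phase genes on 0.37, while nucleotide synthesis genes centre on 0.00 and include Slc29a1 at -1.24.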

How the data were processed

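The deposited scanner files hold spot intensities from Agilent Feature Extraction, version 12.0.0.7 per the file headers and 10.7.3.1 per the submitters' processing notes; probe positions are in mm9 per the file headers. The processed signal was used, which per the file headers is already background-corrected. The authors' deposited series matrix of processed intensities served as an alternative, after their log2 was taken here. The normalization of that matrix between arrays is not stated in the labels.

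The log2 processed signal was scaled to the 75th percentile of the non-control probes of each scan. Outlier spots were left out, spots of a probe were averaged, and probes well above background on at least 4 of 10 scans were kept (17455 of 55681). The brightest probe stood for its gene. Scans of the same array position were averaged, and mimic and scramble arrays were compared with limma 3.58.1 in R 4.3.3, with Benjamini-Hochberg adjustment over 13677 genes. Steps were tested on simulated data.

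Symbols came from the RefSeq table (GRCm38.p6) by accession for 28026 probes, by symbol for 3418 and by synonym for 294, and 23943 kept the name in the file. Values on every array are given for members past the threshold and for the member with the largest and the least difference of each role; Rrm2 and Pcna were added after their values were seen. The members, lists and tests were chosen with earlier results of these data known. Replicate numbers did not pair the samples: deviations of same-numbered mimic and scramble scans correlated at 0.19, -0.05, -0.28 and 0.13.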

Additional observations from a re-analysis of the deposited data

How the results depend on the processing

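Over 22 alternatives, Dut lost its call only with no filter on dim probes (limma adjusted p = 0.0916) among those with a test and ranged from 1.12 to 2.07. Tk1 lost its call under array-median scaling, with no filter and in slide row 1 alone, and ranged from 0.91 to 1.42. Pola1 lost its call under normexp, with no filter, without mimic array 3, in the series matrix values and in slide row 1 alone, and ranged from 0.68 to 1.42. Gmnn kept its call in 8 alternatives and lost it in 13, from 0.63 to 1.69. No member was called lower under any of them. The causes were not tested, except that fits on fewer arrays have less data and the fits on every scan count each array more than once.

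The number of members called higher was 4 as reported, beside 802 of 13677 genes. It was 2 under array-median scaling (beside 483). With no filter it was 0 of 49 members, beside 205 of 34608 genes. In the series matrix values it was 2 of 48 members, beside 305 of 18127 genes. With probes well above background on all scans it was 8 of 35 members, beside 636 of 10336 genes. It was 21 with every scan as a sample (beside 2517) and 12 with the replicate block (beside 1417). A day block with arrays as random gave 8 (beside 1116) and the first scan day gave 6 (beside 855). Leaving out mimic array 1, 2 or 3 gave 3, 3 and 2 (beside 366, 345 and 373). The members' median difference was 0.46 as reported, beside 0.09 for all genes. It was 0.30 on the second scan day (beside 0.05) and 0.30 in slide row 1 alone (beside -0.01). Slide row 2 alone gave 0.74 (beside 0.23), and leaving out 1 array gave 0.38 to 0.63 (beside 0.03 to 0.15).

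The further genes called higher, 4 as reported with Dscc1 and Ticrr counted, numbered 2 with the percentile over detected probes. They numbered 1 under array-median scaling, 2 under normexp, 0 with no filter and 7 with probes well above background on all scans. Fits on scans gave 17 with every scan as a sample, 9 with the day block and 9 with the replicate block. They numbered 0 on the second scan day, with slide row as a block, in the series matrix and without mimic array 1, 2 or 3. Those called lower, 1 as reported, numbered 0 under array-median scaling, 0 with no filter, 6 with every scan, 3 with the replicate block, 2 in slide row 1 alone and 1 to 4 on leaving out 1 array.

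Over all genes, 802 higher and 530 lower as reported, the counts were 674 and 664 with the percentile over detected probes, 483 and 278 under array-median scaling, 205 and 202 with no filter, 2517 and 1637 with every scan, 1417 and 919 with the replicate block, 457 and 353 with slide row as a block, and 305 and 311 in the series matrix. Higher genes numbered 504 on the second scan day and 398 in slide row 1 alone. Leaving out 1 array gave 345 to 2460 higher and 275 to 1211 lower. The median of all genes was -0.04 with the percentile over detected probes and 0.18 under array-median scaling, against 0.09.

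Signs turned only in members that were not called. With the percentile over detected probes Mcm2 was -0.05, Mcm5 -0.04 and Rfc1 -0.07; under array-median scaling Gins3 was 0.02 and Rpa1 0.02; under quantile normalization Rfc1 was 0.00; under normexp Tyms was -0.09; with the replicate block Rpa1 was 0.03. On the first scan day Rpa1 was 0.04, Chaf1a 0.17 and Dnmt1 0.00, and on the second Rfc1 was -0.05 and Rrm1 -0.02. In slide row 1 alone Orc6 was -0.04, Gins3 0.33, Rfc1 -0.06, Pold2 0.02, Rpa1 0.01, Tyms -0.03 and Dnmt1 0.12, and in slide row 2 alone Mcm5 was -0.01 and Ccne1 0.12. On leaving out 1 array, Mcm5 ranged from -0.05 to 0.23, Gins3 from -0.33 to 0.20, Ccne1 from -0.49 to 0.06, Rfc1 from -0.01 to 0.15, Pold2 from -0.35 to 0.07, Rpa1 from -0.21 to 0.14, Rrm1 from 0.00 to 0.36, Tyms from -0.06 to 0.82, Chaf1a from -0.29 to 0.04 and Dnmt1 from -0.29 to 0.03. The row splits were added after seeing the data.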

Other observations

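Some further cell cycle genes stood apart without passing the test and were picked after their values were seen. Cdk2, the kinase that cyclins E and A activate, had log2 signals of 0.27, 0.13 and 0.07 on the mimic arrays, against 0.73 and 1.55 on the scramble arrays (difference -0.98, SE 0.27, limma adjusted p = 0.0562). It lay below both scramble arrays on every mimic array, the opposite side from its partner Ccna2. Cdk1, the mitotic kinase, had log2 signals of 2.91, 3.13 and 3.05 on the mimic arrays, against 2.44 and 1.61 on the scramble arrays (difference 1.0, limma adjusted p = 0.0544).

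Donson, a factor of the replication fork, had log2 signals of 0.94, 1.38 and 1.01 on the mimic arrays, against 1.08 and -2.32 on the scramble arrays. It was well above background on 2 of 4 scramble scans, so no size is given for its difference, and scramble array 1 lay within the mimic range.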
